A study of Mus musculus with 16 samples.

Results

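Nucleic acid sensors are the proteins by which a cell detects RNA or DNA in the wrong place, and 8 of their genes are described here in irradiated B16-BL6 melanomas. Ddx58 (now also named Rigi), Ifih1 and Dhx58 encode the helicases RIG-I, MDA5 and LGP2, which bind double-stranded RNA in the cytosol. Zbp1 binds nucleic acids in the Z conformation, Aim2 binds cytosolic DNA, Eif2ak2 encodes the RNA-activated kinase PKR, Adar edits adenosine in double-stranded RNA, and Trex1 degrades cytosolic DNA. The members were all probes of the array that carry 1 of these 8 gene names, whatever their values, which gave 8 of the 30027 gene names on the array and 13 of its 41174 probes. Of the 8 genes, 7 could be tested.

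RIG-I and MDA5 signal through the adaptor MAVS to the transcription factors IRF3 and IRF7, which switch on type I interferon. Interferon in turn raises most of these sensors, so that several of them serve both as detectors and as products of the response. In tumours, radiation can leave DNA or RNA in the cytosol, and sensing of it is known to feed antitumour immunity, while ADAR and TREX1 remove or mask such ligands and hold sensing back.

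The study asked what 5-aminolevulinic acid (ALA), a heme precursor from which cells make the photosensitiser protoporphyrin IX, adds to radiotherapy. RNA came from 16 B16-BL6 tumour preparations of male C57BL/6J mice aged 8 weeks, 4 in each of 4 groups. Control mice received no treatment, ALA mice received 50 mg/kg ALA given locally, X-ray mice were irradiated in fractions, and ALA plus X-ray mice received the same ALA before irradiation (the combination); the radiation dose is not given in the sources used here. B16-BL6 is a transplantable mouse melanoma line, so all groups share 1 tumour line in 1 host strain, and the RNA is that of whole tumours. Each preparation was hybridised to a 1-colour Agilent array, and levels are given as log2 of the processed signal relative to the 75th percentile of the same array, so that 0 is the brightness of that percentile and 1 unit is a 2-fold difference.

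Of the 8 genes, 6 had a promoter in the RefSeq table (GRCm38.p6), with 250 bases before and 50 after a gene start. These 6 had 9 promoters listed, and Dhx58 and Zbp1 had none, so neither could be searched. Since several members moved together, the listed promoters were searched on both strands for the letters GAAANNGAA. They are a core of the interferon-stimulated response element that IRF factors bind. They were found in 4 genes, Ddx58, Ifih1, Eif2ak2 and Adar (at start 3 of its listed starts), and in 8.56% of all 32851 promoters of the table. The share is counted per promoter and the 4 per gene, so the 2 are not on the same footing. In Ddx58, Ifih1 and Eif2ak2 a further A followed, which makes a stricter motif of 10 letters that contains the shorter one and that 3.44% of all promoters hold. The windows are chr4:40239776-40240075 (minus strand) for Ddx58, chr2:62646206-62646505 (minus strand) for Ifih1, chr17:78882523-78882822 (minus strand) for Eif2ak2 and chr3:89730468-89730767 (plus strand) for Adar. Each is written 5′ to 3′ on the strand of its gene, with every match to either motif on either strand in capitals.
Ddx58 promoter: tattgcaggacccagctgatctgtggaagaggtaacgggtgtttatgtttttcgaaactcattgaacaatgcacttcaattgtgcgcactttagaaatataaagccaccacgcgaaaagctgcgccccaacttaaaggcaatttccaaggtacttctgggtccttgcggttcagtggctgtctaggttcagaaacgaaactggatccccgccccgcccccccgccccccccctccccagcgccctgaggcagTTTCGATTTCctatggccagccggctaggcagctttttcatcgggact
Ifih1 promoter: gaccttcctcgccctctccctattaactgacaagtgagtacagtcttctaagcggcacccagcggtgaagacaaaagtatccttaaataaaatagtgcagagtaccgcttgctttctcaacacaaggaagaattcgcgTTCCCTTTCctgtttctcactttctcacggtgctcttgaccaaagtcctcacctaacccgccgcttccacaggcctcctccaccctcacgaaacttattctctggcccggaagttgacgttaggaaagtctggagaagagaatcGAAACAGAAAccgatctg
Eif2ak2 promoter: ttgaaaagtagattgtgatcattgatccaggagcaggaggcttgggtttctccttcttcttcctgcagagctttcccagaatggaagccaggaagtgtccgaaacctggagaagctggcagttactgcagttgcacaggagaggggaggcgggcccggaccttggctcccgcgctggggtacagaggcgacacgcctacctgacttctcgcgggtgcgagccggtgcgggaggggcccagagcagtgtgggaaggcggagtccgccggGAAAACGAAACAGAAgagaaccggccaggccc
Adar promoter, start 3: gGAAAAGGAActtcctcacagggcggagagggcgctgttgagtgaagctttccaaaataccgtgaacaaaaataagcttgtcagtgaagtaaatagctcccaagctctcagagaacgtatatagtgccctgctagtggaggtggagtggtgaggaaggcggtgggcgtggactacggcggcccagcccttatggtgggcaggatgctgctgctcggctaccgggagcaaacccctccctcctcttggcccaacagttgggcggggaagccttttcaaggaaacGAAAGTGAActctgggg

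In these windows the 10-letter match lay just after the gene start, at bases 3 to 12 in Ddx58 (on the opposite strand), 33 to 42 in Ifih1 and 19 to 28 in Eif2ak2, counted from 1 at the start. A different motif, TTCNNNGAA, the letters of the gamma-activated site, was found in Eif2ak2 and in the Adar window, where 8.30% of all promoters hold it. None of these motifs was in the Aim2 window or in the Trex1 windows. A match describes the letters only, and no binding was measured.

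The tumour identity of the preparations was checked first. All 8 melanocytic markers (Tyr, Tyrp1, Dct, Pmel, Mlana, Mitf, Sox10 and Slc45a2) were measured, and their summed signal ran from 923 to 1298 times the 75th percentile over the 16 arrays. Of the 8, Tyrp1 was called higher and Mitf lower in ALA plus X-ray against control. That percentile lay between 213 and 408 for control tumours, 217 and 331 for ALA, 224 and 478 for X-ray, and 366 and 521 for the combination. Each array resolved 44.3% to 53.6% of its spots above background, with 0 saturated. Replicate number and slide agreed on all 16 arrays, and each of the 4 slides carried 1 array of every group. Each group kept 1 position on every slide, and these cannot be told apart. Differences were tested with limma over 15399 genes, and a gene was called at a Benjamini-Hochberg adjusted p under 0.05. The p-values measure the spread between these tumour preparations. The sources used here do not state whether each preparation came from a different mouse.

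The array of X-ray replicate 1 stood apart in the sensor genes. It held the highest level of all 16 arrays in 6 of the 7 measurable genes, Ddx58, Ifih1, Dhx58, Zbp1, Eif2ak2 and Adar, and the second highest in Trex1. Zbp1 stood at 3.26 on that array and at -3.24 ± 0.74 (SD, n = 3) on the other X-ray arrays. On the same slide, ALA plus X-ray replicate 1 held the lowest level of its group in Ddx58, Ifih1, Dhx58, Zbp1, Eif2ak2 and Trex1, so that the order of these groups on slide 1 was the reverse of that on the other slides. Results of the sensors that use the X-ray group are therefore given with and without X-ray replicate 1. That array was chosen for its values in these same genes, so p-values without it follow from that choice and are a description.

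**Figure D1:**
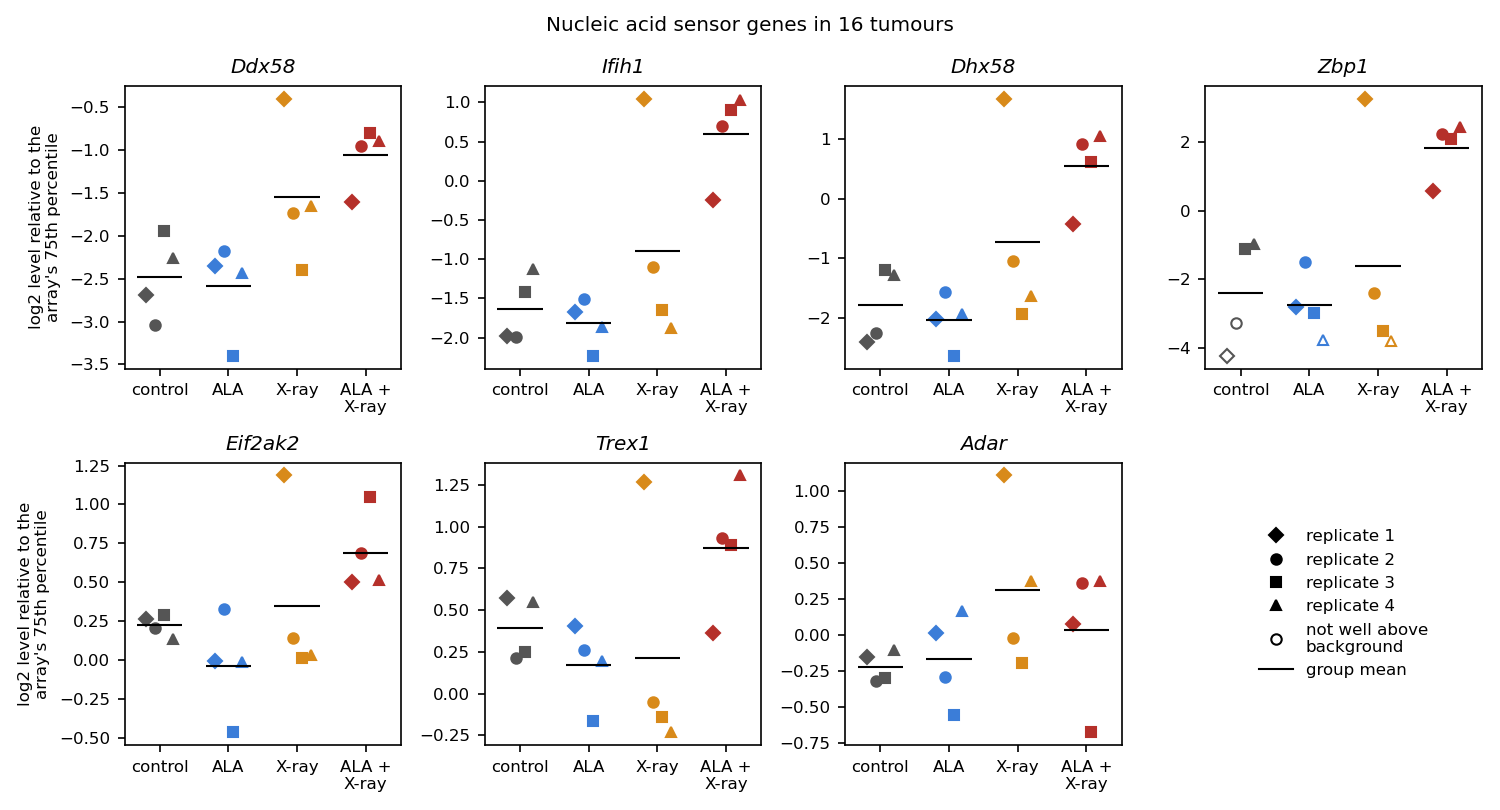
Log2 levels of the 7 measurable sensor genes (vertical axes, relative to the 75th percentile of the array) in the 4 groups (horizontal axes), 1 point per tumour with the replicate as its shape, open points not well above background, and a line at the group mean. X-ray replicate 1 sits above the other X-ray arrays in every panel, and the 4 ALA plus X-ray arrays sit above all control arrays in Ddx58, Ifih1, Dhx58, Zbp1 and Eif2ak2.

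In ALA plus X-ray tumours against control, the 3 RNA helicase genes and Zbp1 rose, and Eif2ak2, Trex1, Adar and Aim2 were not called. Among the 7 genes tested, 4 were called higher and 0 lower. Over all genes 9.77% were called higher in this comparison. The 7 sensors had a median log2 fold change of 1.42, against -0.08 for all genes. In 5 of the 7 the arrays of the groups did not overlap and ALA plus X-ray was higher, as in 8.99% of all genes.

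Zbp1, which senses Z-form nucleic acid and triggers necroptosis through RIPK3, rose most on this scale. In control replicates 1 to 4 it stood at -4.23, -3.28, -1.13 and -0.97, and in ALA replicates at -2.81, -1.49, -2.97 and -3.76. In X-ray replicates it stood at 3.26, -2.40, -3.52 and -3.80, and in ALA plus X-ray replicates at 0.57, 2.22, 2.08 and 2.43. All ALA plus X-ray arrays lay above all control and all ALA arrays, and X-ray replicate 1 lay above them all. The rise against control was 18.8-fold (log2 4.23, SE 1.26, adjusted p = 0.0271). It was 4.80, 5.50, 3.22 and 3.40 on the log2 scale within slides 1 to 4. The probe (chr2:173032113-173032170, minus strand, in mm9 as all probe positions here, per the array annotation) was well above background on 2 control, 3 ALA, 3 X-ray and 4 ALA plus X-ray arrays, so the control mean rests partly on arrays that did not resolve it.

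Ifih1 encodes MDA5, which detects long double-stranded RNA. Its main probe (chr2:62435621-62435680, minus strand) gave -1.98, -1.99, -1.42 and -1.13 in control replicates 1 to 4 and -1.67, -1.51, -2.23 and -1.87 in ALA replicates. The X-ray replicates stood at 1.04, -1.10, -1.65 and -1.88, and the ALA plus X-ray replicates at -0.25, 0.70, 0.90 and 1.03. Every ALA plus X-ray array exceeded every control and ALA array. The rise against control was 4.67-fold (log2 2.22, SE 0.51, adjusted p = 0.00976), and within slides it ran from 1.73 to 2.69 on the log2 scale. A second Ifih1 probe, whose 60 bases span 2148 bases of the genome, was well above background on only 1 array (ALA replicate 2) and gave no fold.

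Dhx58 encodes LGP2, a helicase without signalling domains that modulates RIG-I and MDA5. Its probe (chr11:100556271-100556330, minus strand) gave -2.40, -2.25, -1.20 and -1.29 in control and -2.01, -1.56, -2.62 and -1.93 in ALA replicates 1 to 4. It gave 1.66, -1.04, -1.92 and -1.63 in X-ray and -0.42, 0.92, 0.60 and 1.05 in ALA plus X-ray replicates. The ALA plus X-ray group again lay wholly above control and ALA. Dhx58 rose 4.99-fold against control (log2 2.32, SE 0.63, adjusted p = 0.0187), by 1.80 to 3.17 within slides on the log2 scale.

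Ddx58 encodes RIG-I, which recognises short RNA with a 5′ triphosphate. Its brightest probe, A_51_P393748 (chr4:40156918-40156977, minus strand), gave -2.69, -3.04, -1.94 and -2.25 in control and -2.35, -2.18, -3.40 and -2.43 in ALA replicates 1 to 4. In X-ray replicates it gave -0.40, -1.73, -2.40 and -1.65, and in ALA plus X-ray replicates -1.60, -0.95, -0.80 and -0.89. The ALA plus X-ray arrays lay above all control and all ALA arrays and overlapped the X-ray arrays only because X-ray replicate 1 lay above them. Ddx58 rose 2.68-fold against control (log2 1.42, SE 0.38, adjusted p = 0.0185), by 1.09 to 2.10 within slides on the log2 scale.

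The array carries 4 probes of Ddx58, which differed in whether they resolved the transcript. The sequences of 3 of them are shown, because the same gene was read on 16 arrays by the first, on 4 by the second and on 0 by the third; the last 2 lie at chr4:40152842-40152901 and chr4:40176528-40176587 (mm9, minus strand). No base is capitalised.
A_51_P393748: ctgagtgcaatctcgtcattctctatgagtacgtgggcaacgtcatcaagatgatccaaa
A_52_P479001: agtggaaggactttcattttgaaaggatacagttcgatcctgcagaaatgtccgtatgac
A_52_P523946: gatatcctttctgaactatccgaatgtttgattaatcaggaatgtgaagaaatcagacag

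These probes start at bases 2251, 2851 and 492 of the transcript, per the array annotation, and their GC contents are 45.0%, 41.7% and 35.0%. The arrays on which A_52_P479001 was well above background were X-ray replicate 1 and ALA plus X-ray replicates 2, 3 and 4, and they were the same for the remaining probe, A_52_P385536 (chr4:40151133-40151192). Against control, A_52_P479001 was at least 1.41-fold and A_52_P385536 at least 1.42-fold higher in ALA plus X-ray. Both probes passed the filter of 4 arrays only through the arrays where they were high, so no test of them is given. Neither probe was resolved on any control array. The folds are therefore lower bounds, set against the lowest signal that other spots resolved on the control arrays. The ALA plus X-ray mean in them includes replicate 1, where neither probe was well above background.

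**Figure D2:**
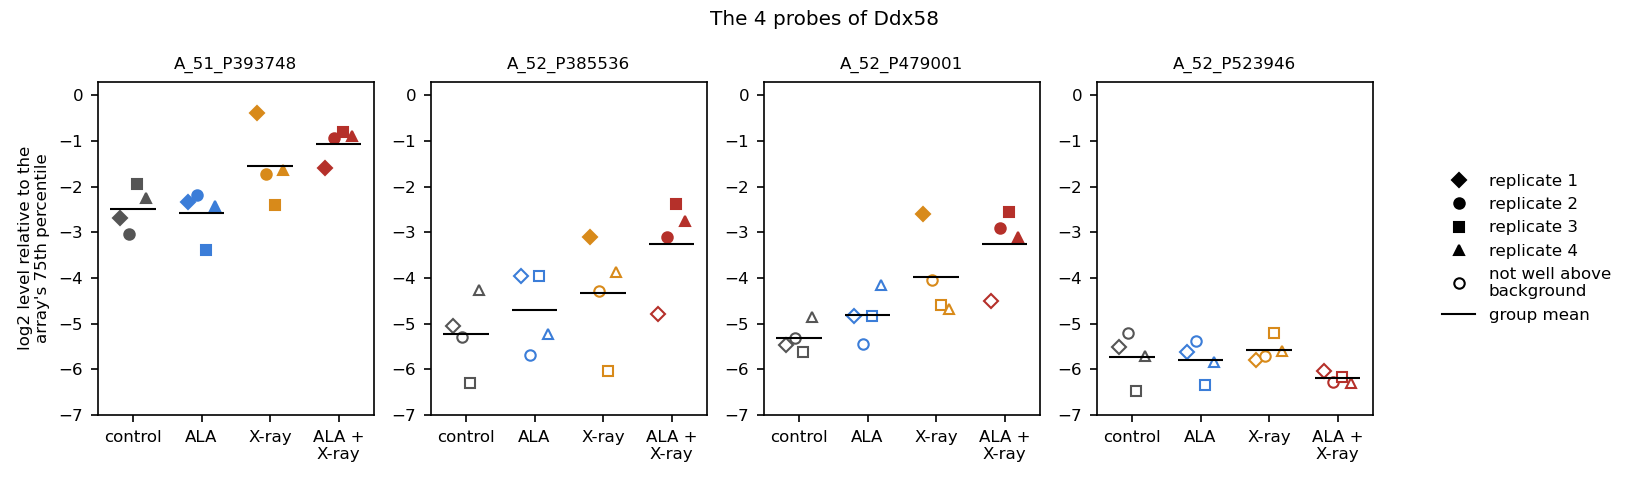
Log2 level of each Ddx58 probe (vertical axis, relative to the 75th percentile of the array) in the 4 groups (horizontal axis), 1 point per tumour, filled where the probe was well above background, with a line at the group mean. A_51_P393748 was well above background on 16 arrays, A_52_P385536 and A_52_P479001 on 4 each, and A_52_P523946 on 0.

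Eif2ak2 encodes PKR, which halts translation by phosphorylating eIF2 alpha when it binds double-stranded RNA. Its probe (chr17:79252168-79252227, minus strand) gave 0.26, 0.20, 0.29 and 0.14 in control and -0.01, 0.33, -0.47 and -0.01 in ALA replicates 1 to 4. It gave 1.19, 0.14, 0.01 and 0.03 in X-ray and 0.50, 0.68, 1.05 and 0.52 in ALA plus X-ray replicates. The ALA plus X-ray arrays lay above all control and ALA arrays, by little in the lowest of them. The log2 difference from control was 0.46 (SE 0.24, adjusted p = 0.162, 95% interval -0.05 to 0.98) and did not pass. It did pass without X-ray replicate 1 in the fit (adjusted p = 0.0484), which leaves the difference itself as it was.

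Neither gene that restrains sensing was called against control with all arrays. Trex1, the exonuclease that clears cytosolic DNA (chr9:108960837-108960896, minus strand), gave 0.57, 0.21, 0.25 and 0.55 in control, and 0.40, 0.26, -0.16 and 0.20 in ALA replicates 1 to 4. It gave 1.27, -0.05, -0.14 and -0.23 in X-ray, and 0.36, 0.93, 0.89 and 1.31 in ALA plus X-ray replicates. ALA plus X-ray replicate 1 lay within the control values, and the log2 difference from control was 0.48 (SE 0.29, adjusted p = 0.233, 95% interval -0.14 to 1.10). Trex1 was called against control with array weights and without slide 1.

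Adar, the RNA editing enzyme that marks cellular double-stranded RNA as self, was read by 2 probes on all 16 arrays. The probe with the higher mean (chr3:89554950-89555009, plus strand) gave -0.15, -0.32, -0.30 and -0.10 in control and 0.02, -0.29, -0.55 and 0.17 in ALA replicates 1 to 4. It gave 1.11, -0.02, -0.20 and 0.37 in X-ray and 0.08, 0.36, -0.67 and 0.38 in ALA plus X-ray replicates, and all 4 groups overlapped. The log2 difference between ALA plus X-ray and control was 0.25 (SE 0.28, adjusted p = 0.535, 95% interval -0.34 to 0.85), and 0.27 (SE 0.19, adjusted p = 0.301) by the second probe (chr3:89557158-89557217). No Adar call was made by either probe in any comparison.

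Aim2, the DNA sensor that assembles an inflammasome, was not resolved. Its only probe (chr1:175395269-175395328, plus strand) was well above background on 0 of 16 arrays and was not tested. Its signal lay between -5.05 and -3.63 for control, -4.75 and -4.07 for ALA, -5.03 and -3.72 for X-ray, and -6.36 and -5.82 for the combination. These are values at the level of the background and give no fold.

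Calls against control depended on single tumours, among the sensors as over all genes. Without control replicate 2 only Ifih1 was called. There were 2 calls without control replicate 1 or ALA plus X-ray replicate 2 (Ddx58 and Ifih1) or without ALA plus X-ray replicate 3 (Dhx58 and Ifih1), and 3 without ALA plus X-ray replicate 4, where Zbp1 lost its call. Ddx58 was not called with normexp background correction (3 calls), and Zbp1 was not tested when all 16 arrays had to be well above background (3 calls). Without all 4 arrays of slide 2 or of slide 4 there were 0 calls, and without slide 3 there was 1 (Ddx58). Without slide 1 there were 5, Trex1 in addition to the 4. Without X-ray replicate 1 there were 5, Eif2ak2 in addition to the same 4 genes. With all arrays 1504 of all genes were called higher and 2324 lower. The total over all genes was 33 without slide 2, 391 without slide 4, 1715 without slide 3 and 4872 without slide 1. It was 2239 and 1954 without control replicates 1 and 2, and 3942 without X-ray replicate 1. Without ALA plus X-ray replicates 2, 3 and 4 it was 2194, 2191 and 2626.

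Against ALA alone, ALA plus X-ray tumours had higher levels of Zbp1, Ifih1, Dhx58, Ddx58 and Eif2ak2. The comparison shares its treated arrays with that against control, so it is not independent of it. Here 5 of the 7 genes were called higher and 0 lower, where 10.7% of all genes were called higher. In 5 the arrays did not overlap, with ALA plus X-ray higher, as in 9.29% of all genes. The median log2 fold change was 1.53 for the sensors and -0.13 for all genes.

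Zbp1 rose 24.0-fold against ALA (log2 4.59, SE 1.26, adjusted p = 0.0200), and its within-slide differences ran from 3.39 to 6.19 on the log2 scale. Ifih1 rose 5.33-fold (log2 2.41, SE 0.51, adjusted p = 0.0067), Dhx58 5.92-fold (log2 2.56, SE 0.63, adjusted p = 0.0129) and Ddx58 2.89-fold (log2 1.53, SE 0.38, adjusted p = 0.0141). Eif2ak2 rose 1.65-fold (log2 0.73, SE 0.24, adjusted p = 0.0404), higher on all 4 slides, and lost its call in 15 of 32 alternatives, with adjusted p from 0.00743 to 0.268. The log2 difference of Trex1 was 0.70 (SE 0.29, adjusted p = 0.0881) and that of Adar 0.20 (SE 0.28, adjusted p = 0.616), and neither passed. Without ALA replicate 4 there were 3 calls (Ddx58, Dhx58 and Ifih1), and without slide 2, slide 3 or slide 4 there were 0. Without slide 1 there were 6, Trex1 in addition to the 5. The total over all genes was 2165 without ALA replicate 4 and 4853 without slide 1. It was 655, 662 and 570 without slides 2, 3 and 4, where 1649 were called higher and 2064 lower with all arrays.

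Radiation alone left no sensor called. In X-ray tumours against control, 0 of 7 genes passed in limma, where 1.99% of all genes were called higher, and 1 gene, Ddx58, had an unadjusted p under 0.05, as did 21.9% of all genes. Among all genes tested, 307 were called higher and 212 lower; the total was 1 without X-ray replicate 1, 2 without control replicate 2 and 28 with median scaling. The log2 difference of Ddx58 was 0.94 (SE 0.38, adjusted p = 0.171). The sensors' median was 0.73 against -0.02 for all genes. No sensor had X-ray arrays wholly above control, where 7.83% of all genes did.

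In each of the 7 genes the highest difference was that of slide 1. Within slides 1 to 4 the X-ray array differed from its control by 7.49, 0.88, -2.39 and -2.82 in Zbp1, by 3.02, 0.89, -0.23 and -0.75 in Ifih1 and by 4.07, 1.22, -0.73 and -0.34 in Dhx58, on the log2 scale. Zbp1 thus lay above control on slides 1 and 2 and below it on slides 3 and 4. Ddx58 differed by 2.29, 1.31, -0.46 and 0.61. Adar differed by 1.26, 0.29, 0.10 and 0.47, so that it lay above control on all 4 slides. Without X-ray replicate 1 the log2 difference was 0.56 for Ddx58 (adjusted p = 0.365), 0.09 for Ifih1 (0.904), 0.26 for Dhx58 (0.748) and -0.83 for Zbp1 (0.574), the last with its sign turned. That of Eif2ak2 turned from 0.12 to -0.16 and that of Trex1 moved from -0.18 to -0.54. The only call in any alternative was Ddx58, without slide 3 (adjusted p = 0.0490).

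**Figure D3:**
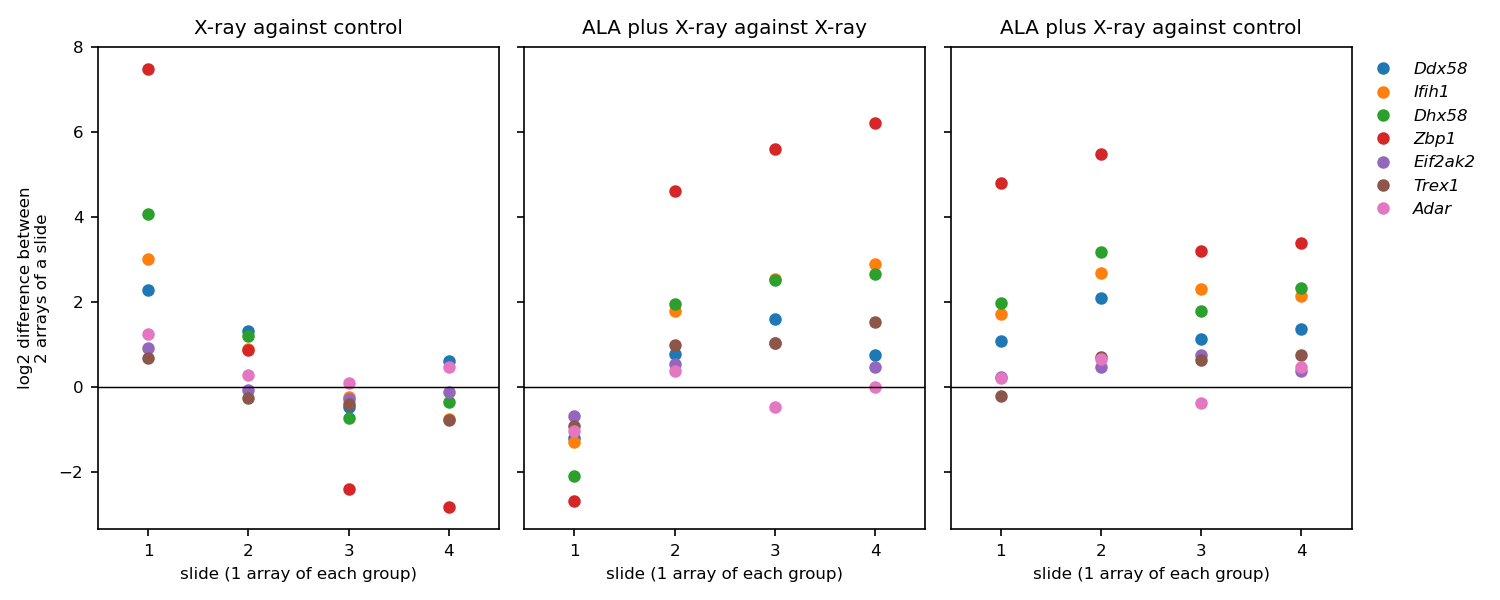
Log2 difference between 2 arrays of the same slide (vertical axis) for the 7 sensor genes on each of the 4 slides (horizontal axis), in 3 comparisons, 1 point per gene. On slide 1 the X-ray array exceeds its control in every gene and the ALA plus X-ray array in every gene; on slide 4 Zbp1 lies 2.82 below control in X-ray and 6.23 above X-ray in ALA plus X-ray.

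ALA without radiation did not change any sensor past the threshold. In limma 0 of the 7 genes passed against control, as did 0% of all genes, and 0 of the 7 had an unadjusted p under 0.05, against 6.24% of all genes. Log2 differences ran from -0.36 (Zbp1, 95% interval -3.05 to 2.34) to 0.05 (Adar, -0.55 to 0.65). No sensor had ALA arrays wholly above control, against 3.19% of all genes. The controls themselves lay apart in Zbp1, with replicates 1 and 2 not well above background and replicates 3 and 4 higher than all ALA arrays.

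The comparison of ALA plus X-ray with X-ray asks what ALA added to irradiation. With all 16 arrays no sensor passed in limma, where 1.3% of all genes were called higher, and 3 genes (Ifih1, Zbp1 and Trex1) had an unadjusted p under 0.05, as did 23.2% of all genes. No sensor had arrays that did not overlap, against 2.72% of all genes higher without overlap. The log2 difference was 3.44 for Zbp1 (SE 1.26, adjusted p = 0.131), 1.49 for Ifih1 (SE 0.51, adjusted p = 0.112), 1.27 for Dhx58 (SE 0.63, adjusted p = 0.241) and 0.66 for Trex1 (SE 0.29, adjusted p = 0.191). It was 0.48 for Ddx58 (adjusted p = 0.467), 0.34 for Eif2ak2 (0.404) and -0.28 for Adar (0.568).

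The slides were split in this comparison. On slide 1 the ALA plus X-ray array was below the X-ray array in all 7 genes, by 2.69 in Zbp1 and by 2.09 in Dhx58 on the log2 scale. On slides 2, 3 and 4 it was above it in all but Adar on slide 3, by 4.62, 5.60 and 6.23 in Zbp1 and by 1.80, 2.55 and 2.91 in Ifih1.

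Without X-ray replicate 1, 5 of the 7 sensors were called higher in the combination than in X-ray alone, where 4.85% of all genes were. Zbp1 was then 33.4-fold higher (log2 5.06, SE 0.78, adjusted p = 0.0024), Ifih1 4.40-fold (log2 2.14, SE 0.32, adjusted p = 0.00224) and Dhx58 4.18-fold (log2 2.06, SE 0.40, adjusted p = 0.00783). Trex1 was 2.02-fold higher (log2 1.01, SE 0.20, adjusted p = 0.00851) and Eif2ak2 1.54-fold (log2 0.62, SE 0.17, adjusted p = 0.0467). Ddx58 had a log2 difference of 0.87 (SE 0.33, adjusted p = 0.127) and Adar of -0.02 (SE 0.25, adjusted p = 0.974). All 4 ALA plus X-ray arrays lay above the other 3 X-ray arrays in every sensor but Adar, by little in Ddx58 (-1.60 against -1.65). The array left out was the highest in most of these genes, so this separation follows in part from that choice. The share of all genes that separate in this way was not computed. Leaving out ALA plus X-ray replicate 1 instead gave 1 sensor call, Ifih1. Over all 15399 genes it gave 3135 calls in either direction, against 1093 without X-ray replicate 1.

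**Figure D4:**
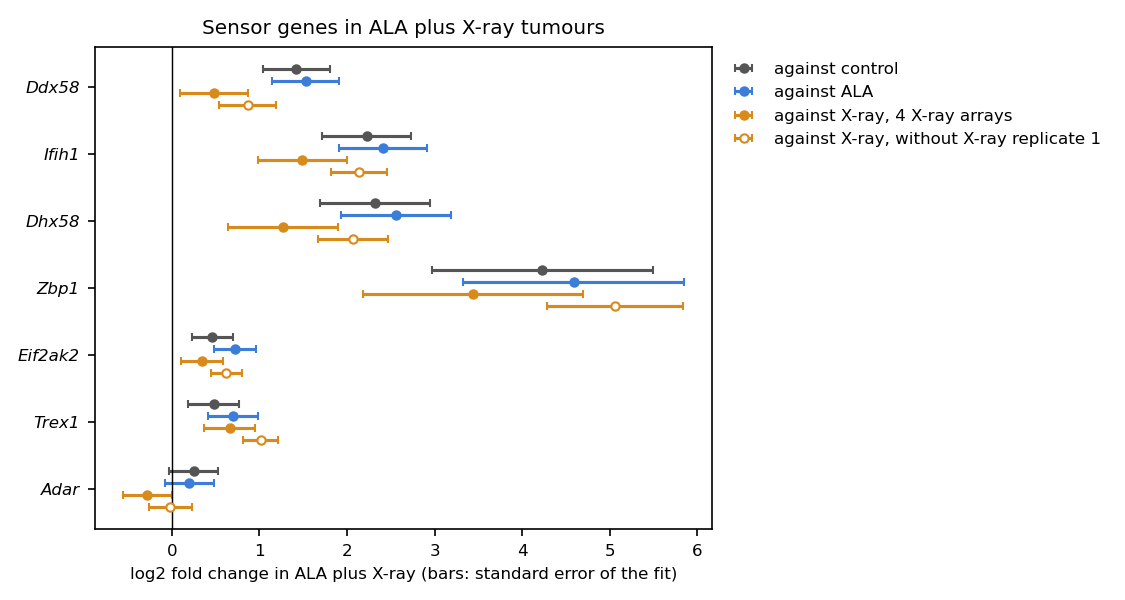
Log2 fold change of 7 sensor genes in ALA plus X-ray tumours (horizontal axis) against control, ALA and X-ray, with the standard error of the fit as bars; open points leave out X-ray replicate 1. Zbp1 lies at 4.23 against control and moves from 3.44 to 5.06 against X-ray when X-ray replicate 1 is left out, while Adar lies at 0.25 against control and -0.28 against X-ray.

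The interaction of ALA and X-ray tests whether the difference between ALA plus X-ray and X-ray exceeds that between ALA and control. No sensor passed in limma, where 0.896% of all genes were called higher, and 2 genes (Ifih1 and Trex1) had an unadjusted p under 0.05, as did 19.1% of all genes. The log2 interaction was 3.80 for Zbp1 (SE 1.78, adjusted p = 0.264), 1.68 for Ifih1 (SE 0.72, adjusted p = 0.229), 1.51 for Dhx58 (SE 0.89, adjusted p = 0.363) and 0.88 for Trex1 (SE 0.41, adjusted p = 0.257). Without X-ray replicate 1, 5 of the 7 were called, where 3.45% of all genes were called higher. They were Zbp1 (log2 5.42, adjusted p = 0.0104), Ifih1 (2.33, 0.00841), Dhx58 (2.31, 0.028), Trex1 (1.24, 0.0193) and Eif2ak2 (0.89, 0.0486), and Adar stood at -0.07 (adjusted p = 0.921).

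The other parts of the sensing pathways were read from 7 lists. Against control, interferon-induced effectors rose. Of 10 genes tested, Ifi44 and Mx1 passed the filter only through 3 ALA plus X-ray arrays and 1 X-ray array. Of the other 8, 7 were called higher and 0 lower, where 9.77% of all genes were called higher and 15.1% lower. The antiviral gene Ifit1 rose 14.8-fold (adjusted p = 0.00646), the dynamin-like GTPase gene Mx2 6.51-fold (0.00975), Ifit3 8.30-fold (0.0124) and the ubiquitin-like modifier gene Isg15 6.51-fold (0.0136); Ifit1 and Mx2 were well above background on 2 of 4 control arrays. The others called among the 8 were Rsad2, Usp18 and Oasl2. Isg15 stood at 3.61 on X-ray replicate 1, above all other arrays, and at -0.14 to 0.87 on the other X-ray arrays.

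Of the other nucleic acid sensors, 10 of 13 passed the filter of 4 arrays. Tlr7, the endosomal receptor for single-stranded RNA, was well above background on 2 control, 0 ALA, 1 X-ray and 4 ALA plus X-ray arrays. It passed the filter only with the last group, so no test of it is given. Among the others, the DNA-binding PYHIN gene Ifi204 was called higher against control (8.28-fold, adjusted p = 0.0207), and 3 genes were called lower. The shares over all genes were 9.77% higher and 15.1% lower. Cgas, the cytosolic DNA sensor that makes cGAMP, fell to 0.594 of control (adjusted p = 0.0229), and the helicase genes Dhx9 (0.451, adjusted p = 0.00253) and Dhx36 (0.709, adjusted p = 0.0443) fell too. Cgas and Dhx9 were also lower in X-ray alone, at 0.526 (adjusted p = 0.0348) and 0.506 (0.0209) of control; without X-ray replicate 1 neither was called there (adjusted p = 0.0703 and 0.062). The list's median against control, with Tlr7 included, was -0.15.

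Among the adaptors and kinases, 13 of 14 were tested, and 4 rose and 1 fell against control. The shares over all genes were 9.77% higher and 15.1% lower. Sting1, the adaptor that receives the cGAS signal, rose 2.25-fold (adjusted p = 0.00222), the ubiquitin ligase genes Trim25 2.03-fold (0.00383) and Rnf135 1.75-fold (0.00413), both known to activate RIG-I, and the interferon transcription factor gene Irf7 11.1-fold (0.0252, resolved on 2 control arrays). Traf3 fell to 0.593 of control (adjusted p = 0.0414). Mavs, the adaptor of RIG-I and MDA5, ran from 1.28 to 1.63 over control and from 1.24 to 2.12 over ALA plus X-ray arrays and was not called (log2 0.09, SE 0.17, adjusted p = 0.739). Against X-ray, with Tlr7 set aside, Sting1 (1.81-fold, adjusted p = 0.0375) was the only pathway gene called with all arrays. Without X-ray replicate 1 Sting1 stood at 2.07-fold (adjusted p = 0.00187). Over all genes, 200 were called higher and 118 lower in this comparison, and the total fell to 4 without X-ray replicate 3 and to 3 without ALA plus X-ray replicate 3.

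Inflammasome and necroptosis genes were all tested, and 3 of 9 rose and 1 fell against control. The shares over all genes were 9.77% higher and 15.1% lower. Mlkl, the pore-forming effector of necroptosis, rose 1.78-fold (adjusted p = 0.00487), the inflammasome adaptor gene Pycard 2.43-fold (0.0277) and the pyroptosis pore gene Gsdmd 2.82-fold (0.0299), while Fadd fell to 0.547 (0.0237). Casp1, the protease that AIM2 inflammasomes activate, was called against ALA (11.5-fold, adjusted p = 0.0047) and in the interaction (log2 4.26, adjusted p = 0.0461; 5.02 and 0.00217 without X-ray replicate 1). Ripk3, the partner of ZBP1, was called against ALA (3.26-fold, adjusted p = 0.0355). Neither Casp1 nor Ripk3 was called against control. In ALA against control their log2 differences were -1.65 and -0.73, neither called.

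Of the transducers of type I interferon, Irf9 (2.44-fold, adjusted p = 0.0102) and Stat2 (2.22-fold, 0.0223) rose against control, 2 of 7 tested. In that comparison 9.77% of all genes were called higher. The ligand genes Ifnb1 and Ifna4 were well above background on 0 of 16 arrays. Of the kinases and effectors around eIF2 alpha, to which PKR belongs, 0 of 10 were called higher and 2 lower, where 15.1% of all genes were called lower: Atf4, the stress transcription factor translated when eIF2 alpha is phosphorylated, fell to 0.552 of control (adjusted p = 0.0265) and Eif2s1, which encodes eIF2 alpha, to 0.748 (0.0473). Of the nucleases and RNA editing or decay genes 8 of 11 were tested. The ribonuclease H2 genes Rnaseh2b (0.578 of control, adjusted p = 0.00334) and Rnaseh2a (0.758, 0.0332) fell. They were 2 of the 8, beside a share of 15.1% called lower over all genes. In X-ray alone, Rnaseh2b was lower (0.615 of control, adjusted p = 0.0238) and Rnf135 and Mlkl higher (1.71-fold, adjusted p = 0.0222, and 1.79-fold, 0.0208). Without X-ray replicate 1 none of these 3 was called (adjusted p = 0.0682, 0.0502 and 0.0543). ALA alone changed 0 genes of the 7 lists.

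**Figure D5:**
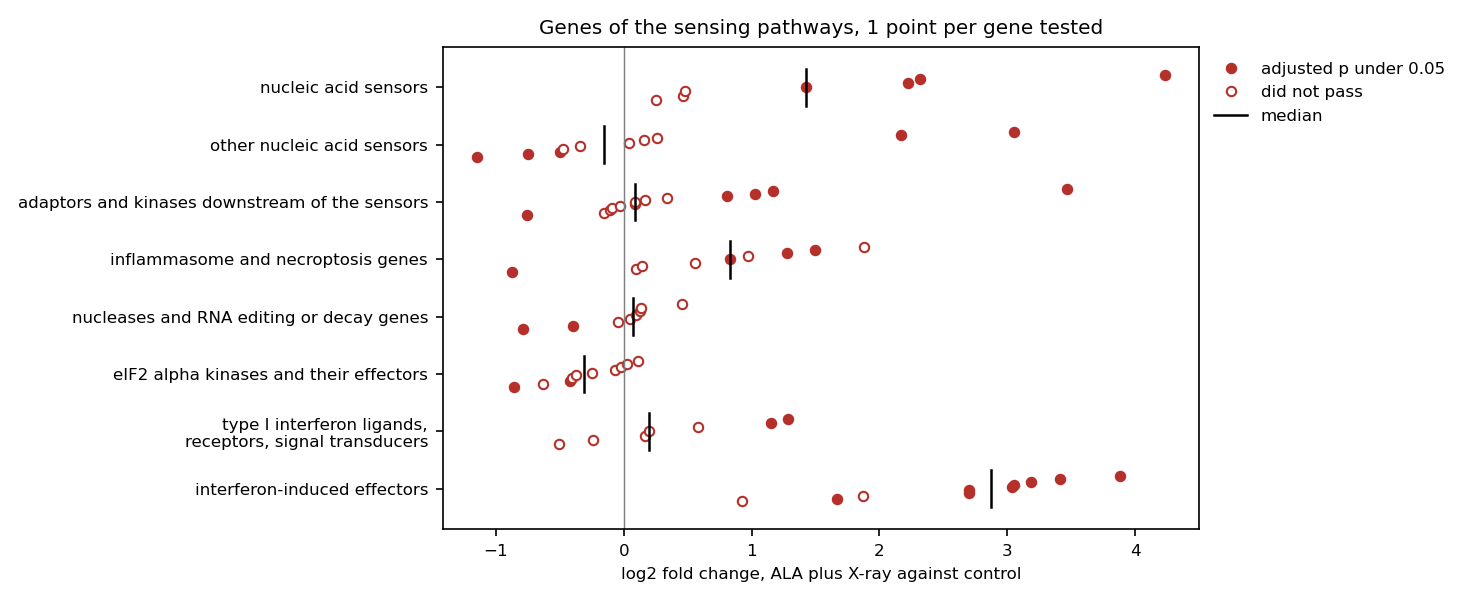
Log2 fold change in ALA plus X-ray against control (horizontal axis) of the 7 sensor genes and of the tested genes of 7 pathway lists (vertical axis), 1 point per gene, filled where the adjusted p was under 0.05, with a bar at the list's median. Interferon-induced effectors have a median of 2.87 over all 10 plotted, of which Ifi44 and Mx1 were resolved on 0 control arrays, and the sensors of 1.42, while genes around eIF2 alpha have a median of -0.31. Tlr7, plotted among the other nucleic acid sensors, passed the filter only with the ALA plus X-ray arrays.

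Summed marker levels of several cell types also differed between groups, not always in the pattern of the sensors. All 15 macrophage and monocyte markers were tested, and their summed signal, in multiples of the 75th percentile, lay between 62.7 and 114 for control, 13.1 and 41.1 for ALA, 20.0 and 114 for X-ray, and 152 and 295 for the combination. Of the 15, 6 were called higher against control, 14 against ALA, 7 against X-ray and 9 in the interaction. Of all genes 9.77%, 10.7%, 1.3% and 0.896% were called higher in these comparisons. Without X-ray replicate 1 the last 2 counts were 12 and 12, and the last 2 shares 4.85% and 3.45%. X-ray replicate 1 summed to 114, against 64.4, 30.0 and 20.0 on X-ray replicates 2 to 4. Of the 13 T and NK cell markers 7 passed the filter (not Cd3g, Cd4, Cd8a, Trac, Prf1 or Ncr1), with sums between 0.403 and 0.887 for control, 0.391 and 0.845 for ALA, and 0.960 and 6.53 for the combination. The sum lay between 0.361 and 0.438 for X-ray replicates 2 to 4 and was 5.03 for X-ray replicate 1. Cd3d, Cd8b1, Gzmb, Nkg7 and Klrd1 were well above background on all 4 ALA plus X-ray arrays and on 0, 1, 0, 1 and 2 control arrays. They passed the filter only with that group, so no test of them is given, and the sums include them. The remaining markers, Cd3e and Lck, had log2 differences of 0.13 and -0.06 against ALA. Against X-ray these were -0.04 and 0.04. In bulk tumour RNA a change in the number of cells of a type and a change in RNA per cell cannot be told apart, and the part of these cells in the sensor levels was not tested.

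Dendritic cell markers (4 of 8 tested) summed to 0.886 to 1.60 and B and plasma cell markers (3 of 7 tested) to 0.142 to 0.338 over the 16 arrays. Fibroblast and matrix markers (10 past the filter) summed to between 27.9 and 107 for control, 16.3 and 99.6 for ALA, 29.8 and 69.9 for X-ray, and 60.3 and 425 for the combination, with 0 called against control. Against ALA, Col1a1, Col1a2, Col3a1, Dcn, Postn and Col6a1 were called higher and Lum was not. In that comparison 10.7% of all genes were called higher. Pdgfra, Fap and Dpt passed the filter only with the combination's arrays, so no test of them is given. Erythroid markers (4 of 4 tested) had sums between 60.1 and 173 for control and 280.1 and 698 for ALA. Their sums lay between 26.1 and 819 for X-ray and 23.4 and 54.7 for the combination. Against ALA 3 of them fell, where 2064 of all 15399 genes were called lower. Neutrophil markers (2 of 7) summed to between 0.122 and 0.957 for control, 1.10 and 3.79 for ALA, 0.131 and 2.44 for X-ray, and 0.148 and 11.6 for the combination, and 1 of them, S100a8, was called higher against control. Skeletal muscle markers (10 of 10) summed to between 1.12 and 239 for control and 0.843 and 4.59 for ALA. They summed to between 0.735 and 20.3 for X-ray and 1.21 and 667 for the combination, with 0 called. Tumours of the same group thus differed widely in them. Over the 16 arrays the sums ran from 6.30 to 18.1 for endothelial (7 of 8) and 0.204 to 5.22 for keratinocyte markers (3 of 7). The part of these cells in the sensor levels was not tested either.

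The sensors varied together across tumours, with Adar apart. Over the 16 arrays the Pearson correlation of 21 gene pairs ran from 0.40 (Zbp1 and Adar) to 0.98 (Ifih1 and Dhx58), with a median of 0.84. Taken as deviations from the group means, so that differences between groups do not enter, it ran from 0.39 (Eif2ak2 and Adar) to 0.97 (Ifih1 and Dhx58). X-ray replicate 1, far above its group in most sensors, was part of these deviations, and they are not given without it. Without X-ray replicate 1 the correlation of levels, group differences included, was 0.03 for Adar with Eif2ak2 and 0.98 for Ifih1 with Dhx58. All such values share the arrays and their scaling, and they are given as a description.

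The genes with the most similar pattern were taken for each sensor. For Zbp1 they were Sp110 (r = 0.98), Gbp3 (0.98) and Phf11a (0.98) over 16 arrays; for Dhx58, Isg15 (0.98), Xaf1 (0.98) and H2-T23 (0.97); and for Ifih1, H2-T23 (0.98), H2-T22 (0.98) and Xaf1 (0.98). Ddx58 was nearest to Oas1f (r = 0.96), Isg15 (0.95) and Oas1a (0.95), and Eif2ak2 to B2m (0.93), Lgals3bp (0.92) and Trim21 (0.92). Trex1 was nearest to Bst1 (0.94), Dok3 (0.93) and Clec4n (0.93). Adar was nearest to Llgl2 (0.86), Parp10 (0.86) and Inha (0.86), and its r with Parp10 was 0.71 without X-ray replicate 1. Spearman's rho for these pairs ran from 0.77 to 0.96. The H2-T and Oas1 genes have close relatives, and a probe may read more than 1 of them.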

How the data were processed

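The deposited intensities are scanner values of 16 Agilent 1-colour arrays (Cy3), 1 file per tumour preparation. Per the file headers, Feature Extraction 10.7.3.1 subtracted background within each array, while the submitters' processing notes name version 9.5.3.1. The authors' value table, also deposited as linear intensity, has a median of 31.881 in every column and correlated with the scanner values at 0.9925 to 1 within arrays; it served as an alternative.

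Here the log2 of the deposited processed signal was taken minus the 75th percentile of non-control spots. The filter asked for a probe to be well above background in 4 or more of 16 arrays. A gene was read from its brightest probe on average, which left 15399 genes. The 4 group means were fitted with limma 3.58.1 (R 4.3.3) with Benjamini-Hochberg adjustment within each of 6 comparisons. Probes were named through RefSeq (26876 by accession, 2894 by symbol, 351 by older symbol), and 11053 kept the file's name. Dim probes were treated as bounds. The named genes were all members, the list genes called in a comparison, and the 3 genes most correlated with each member. Members and lists were chosen with earlier results of these data known. The fit was tested on simulated data: of genes changed by 1 and by 2 on the log2 scale in ALA plus X-ray against control, over 15399 genes, 58% and 89% were recovered. In it 100 genes were changed at each size, and 8 unchanged genes were called. Its noise was independent between genes and no array stood apart, so these shares need not hold for the real arrays. The number of arrays limits the precision. There were 32 alternatives.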

Additional observations from a re-analysis of the deposited data

Results flagged for a closer look

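In 2 genes X-ray replicate 1 lay far from the other X-ray arrays by Dixon's test. Eif2ak2 stood at 1.19 there, with a gap to the next array of 0.891 of the group's range. Trex1 stood at 1.27, with a gap of 0.880 of the range. In all, 28 groups were tested, and chance alone would mark about 5% of the groups tested. The cause was not tested.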

How the results depend on the processing

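The number of sensors called, leaving out single arrays or slides, ran from 0 to 1 in X-ray against control, from 0 to 5 for the combination against X-ray, from 0 to 5 in ALA plus X-ray against control, from 0 to 6 in ALA plus X-ray against ALA, and from 0 to 5 in the interaction; it was 0 throughout in ALA against control. In the same fits the total over all genes ran from 0 to 1087, 0 to 3135, 33 to 5953, 570 to 5817 and 0 to 1339 in that order. It ran from 0 to 1 in ALA against control. With array weights 4 sensors were called against X-ray, of 2165 genes in all, and 3 in the interaction, of 2023. The cause was not tested. With slide as a replicate block 4 sensors were called in ALA plus X-ray against control and 5 against ALA, and the block changed no other sensor call. Over all pairs of groups, the deviations of arrays of 1 slide correlated at -0.46 to 0.54 (median 0.06), with 9 of 24 over 0.1. Those of arrays of different slides correlated at -0.60 to 0.45 (median -0.006), with 20 of 72 over 0.1. For control and ALA plus X-ray arrays of the same slide the values were 0.54, 0.09, 0.52 and 0.41 on slides 1 to 4, so not every pair passed 0.1. Under the block 8 genes of the whole table were called in the interaction, against 138 higher and 51 lower without it. With no filter on dim probes Aim2 was called against control and against ALA, although it was well above background on 0 of 16 arrays.

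Some log2 differences that did not pass turned sign. Adar in ALA against control was -0.0672 with median scaling, the log2 fold change of Ddx58 in ALA against control was 0.0321 with array weights, and Adar in the combination against X-ray was 0.12 with array weights. When arrays were left out, X-ray against control ran from -1.44 to 1.99 in Zbp1, -0.16 to 0.25 in Eif2ak2, -0.0304 to 1.23 in Ifih1 and -0.54 to 0.0135 in Trex1. ALA against control ran from -0.0591 to 0.18 in Adar, -0.43 to 0.34 in Ddx58, -1.07 to 0.45 in Zbp1, -0.41 to 0.0178 in Ifih1 and -0.56 to 0.15 in Dhx58, and the interaction from -0.23 to 1.30 in Ddx58. Under median scaling the all-gene median was -0.12 for ALA against control, -0.12 for the combination against X-ray and -0.14 for it against control. Over all genes, 1504 were called higher and 2324 lower in ALA plus X-ray against control; the total was 2135 with median scaling, 1603 with only the arrays compared and 6442 with array weights.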
